A study of Mus musculus with 4 samples.

Results

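The amino acid transporter families are the solute carrier (Slc) genes whose proteins move amino acids, and in part of the Slc6 and Slc43 families related small molecules, across cell membranes. Members were chosen by gene symbol from the Slc1, Slc3, Slc6, Slc7, Slc36, Slc38 and Slc43 families, leaving out Slc7a11, and each gene was read from its probe set with the highest mean signal over the 4 arrays. That gave 59 genes of the 19938 that had a probe set annotated to 1 gene. The mean signal chose the probe set, and the difference between genotypes took no part in the choice. The families were proposed with earlier results of these arrays known, among them the differences of Slc38a11 and Slc6a15.

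Terminal end buds are the club-shaped tips by which mammary ducts grow through the fat pad at puberty, and they were dissected from female C57/BL6 mice and measured on 4 single-colour Affymetrix arrays. The 2 Ovol2 KO arrays each held RNA pooled from 3 mice of genotype Ovol2flox/-;K14-Cre, in which 1 Ovol2 allele is null in every cell and the other is floxed and exposed to Cre from a transgene with the keratin 14 promoter, known to work in skin and in basal cells of the gland. The 2 control arrays each held 2 mice, given as Ovol2flox/+ in the sample characteristics, and as Ovol2flox/+ or Ovol2flox/+;K14-Cre in the protocol. All groups thus shared a floxed Ovol2 allele, and both the null allele and, per the characteristics, Cre went with the KO label. Ages disagree between the sample characteristics (4.5 weeks) and the design text (24 to 25 days). Ovol2 encodes a zinc finger repressor known to hold back the epithelial-mesenchymal transition, and its own signal was 211 and 204 in KO arrays, against 250 and 291 in control arrays (log2 difference -0.39 ± 0.16, limma adjusted p = 0.17), which did not pass the threshold. Its mean log2 signal of 7.98 lay just above the filter level of 7.97 under which genes were not tested. Both KO arrays lay under that level.

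Amino acids enter cells through carriers that differ in what they take and what drives them. Slc1, Slc6 and several Slc38 carriers use the sodium gradient, and some Slc36 carriers, such as Slc36a1, use protons. The Slc7 light chains exchange 1 amino acid for another and reach the surface bound to a heavy chain of the Slc3 family. Leucine, glutamine and arginine brought in this way feed protein synthesis and signal through the kinase mTORC1, and the lactating mammary gland is known for the large supply that milk protein needs.

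Values were log2(signal + 16) after quantile normalization, genes under the 40th percentile of mean signal were left out of the tests, and KO was compared with control in limma with Benjamini-Hochberg adjustment over 11963 genes. A gene passed at an adjusted p of 0.05. Differences are KO minus control, values after ± are standard errors of the log2 difference from that fit with n = 2 arrays per group, and folds are on the log2(signal + 16) scale, which understates the change of dim genes. Signals are linear and as deposited. A brighter probe set does not mean a more abundant transcript, so signals are compared between arrays and not between genes.

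Of the 59 transporters, 31 were tested and 28 lay under the filter. In the KO end buds 5 rose, 3 fell and 23 did not pass. The 5 that rose were Slc38a11, the arginine carrier gene Slc7a2, the light chain gene Slc7a7, the glutamine carrier gene Slc38a3 and Slc43a3. The 3 that fell were Slc6a15, a carrier gene for branched-chain amino acids and proline, the arginine carrier gene Slc7a1 and the light chain gene Slc7a5. The 8 called are 25.8% of the 31 tested, beside 10.7% of all tested genes. By direction, 16.1% rose against a background of 6.29%, and 9.68% fell against 4.46%. The members share arrays and were proposed with results in view, so these shares are a description. The median log2 difference was 0.03 over the tested transporters and -0.05 over all 59, beside -0.02 over all tested genes and -0.05 over all 19938.

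With a variance prior that has no mean-variance trend, limma called 0 of the 31 transporters, 11 of which had an unadjusted p under 0.05, and 189 of all genes. The sample titles call the arrays of each group biological replicates, but nothing in the labels says that the pools came from separate litters. The p-values measure the spread between these arrays.

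**Figure D1:**
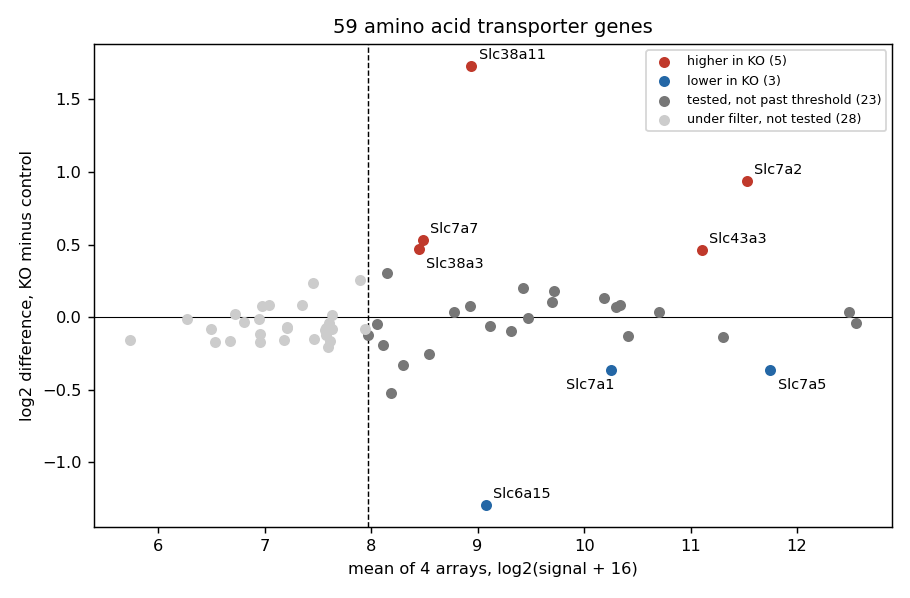
Each point is 1 of the 59 transporter genes, with the mean of the 4 arrays in log2(signal + 16) across and the log2 difference of KO minus control up. The dashed line marks the filter at 7.97. The 28 genes left of it lie between -0.21 and 0.25, and the 8 named genes are those past the threshold.

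Markers of other cells moved in the same arrays, in which 6.29% of all tested genes rose and 4.46% fell. All 10 fibroblast markers rose, and their summed signal was 19891 and 24817 in KO arrays, against 8940 and 9713 in control arrays. Among them Lama2, with a control mean of 7.55 on the log2 scale, passed the filter of 7.97 only through its KO arrays. Of 7 endothelial markers 5 rose (sums 4786 and 5979 in KO, 2758 and 3493 in control). Among them Kdr, with a control mean of 7.69 on the log2 scale, passed the filter of 7.97 only through its KO arrays. Of 5 tested adipocyte markers of 8 on the array 4 rose (sums 5166 and 5863 in KO, 3584 and 3823 in control), namely Fabp4, Cd36, Lpl and Pparg. Plin1 did not pass (log2 difference -0.08), and Adipoq, Lep and Cidec, under the filter, had 0.11, 0.02 and -0.02. Of 3 tested lymphocyte markers of 7 on the array 2 fell (sums 903 and 912 in KO, 2282 and 1787 in control). These were Ccr7 and Cd79b, and Cd79b, with a KO mean of 7.43 on the log2 scale, passed the filter only through its control arrays. Cd3e did not pass (log2 difference -0.25). Under the filter, Cd3g had a log2 difference of -0.10, and Cd79a, Ms4a1 and Cxcr5 had -1.78, -2.05 and -1.01. Of 4 tested macrophage markers of 6 on the array 0 rose and 1 fell. That was Lyz2, with 943 and 456 in KO arrays and 1177 and 1350 in control arrays. Csf1r, Cd68 and Itgam did not pass (log2 differences 0.24, -0.02 and -0.07), and Adgre1 and Mrc1, under the filter, had 0.22 and 0.28. Of 4 tested nerve and Schwann markers 0 rose and 1 fell, namely Ngfr (log2 difference -0.67). Sox10, Mbp and S100b did not pass (-0.23, 0.14 and -0.04). The end bud's own luminal markers had sums of 50772 and 49728 in KO and 47903 and 49374 in control, with 1 of 8 higher. Basal markers had 24311 and 29145 in KO and 19835 and 21752 in control, with 4 of 7 higher and 1 lower. The 4 basal markers that rose were Acta2, Myh11, Cnn1 and Oxtr, and the 1 that fell was Trp63 (log2 difference -0.36). Krt5 and Krt14 had log2 differences of -0.02 and 0.43 and did not pass, so the basal list did not move as a whole. No marker was listed at 0, the lowest being 30.7, and the table carries no detection calls. The part of these shifts in the transporter results was not tested, and in pooled tissue fewer cells of a type and less RNA per cell cannot be told apart.

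RefSeq promoter windows (GRCm38.p6, 250 bases before to 50 after a transcript start) were at hand for 42 of the 59 genes, and for 3 of the 8 that passed. They are shown for Slc38a11 and Slc7a7, which rose, and Slc7a1, which fell, so that the start regions of genes that moved in opposite directions can be read side by side. Capitals mark matches to 3 short motifs, searched on both strands: CCGTTA, a core known for OVOL proteins, CACCTG, a core known for ZEB proteins, and TGATGNAA, a core of the amino acid response elements bound by ATF4.
Slc38a11, chr2:65363977-65364276, minus strand: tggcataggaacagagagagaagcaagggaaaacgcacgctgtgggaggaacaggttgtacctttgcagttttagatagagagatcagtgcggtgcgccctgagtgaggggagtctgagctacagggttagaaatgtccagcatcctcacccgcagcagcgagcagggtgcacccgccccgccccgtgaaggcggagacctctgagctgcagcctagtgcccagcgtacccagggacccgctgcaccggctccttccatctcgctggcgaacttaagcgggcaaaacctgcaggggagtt
Slc7a7, chr14:54417895-54418194, minus strand: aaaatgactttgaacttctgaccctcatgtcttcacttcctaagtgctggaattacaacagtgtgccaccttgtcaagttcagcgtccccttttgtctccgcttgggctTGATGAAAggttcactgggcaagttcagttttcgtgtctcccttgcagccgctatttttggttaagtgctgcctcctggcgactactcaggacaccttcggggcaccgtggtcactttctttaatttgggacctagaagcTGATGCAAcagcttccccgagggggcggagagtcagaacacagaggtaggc
Slc7a1, chr5:148399855-148400154, minus strand: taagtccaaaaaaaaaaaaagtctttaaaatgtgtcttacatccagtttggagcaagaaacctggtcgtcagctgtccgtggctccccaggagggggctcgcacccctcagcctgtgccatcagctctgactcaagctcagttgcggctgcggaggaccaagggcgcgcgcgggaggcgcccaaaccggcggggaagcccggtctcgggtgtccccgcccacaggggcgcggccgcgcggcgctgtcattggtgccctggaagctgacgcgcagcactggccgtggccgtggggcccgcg

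The Slc7a7 window shown holds the TGATGNAA letters 2 times, and it was picked as the one with the most matches among 5 windows of the gene, of which 3 hold none of the 3 motifs. Slc38a11 has 1 window and Slc7a1 has 2, of which the upstream one is shown, and none of these holds any of the motifs. Over all 32851 windows, 2.76% hold CCGTTA, 20.2% hold CACCTG and 3.97% hold TGATGNAA. Over the 63 windows of the transporters the shares were 3.17%, 20.6% and 6.35%. The 4 windows with TGATGNAA belong to 3 of the 42 genes, since 2 overlapping windows of Slc7a7 share a match, so these shares count windows and not independent sites. The 2 windows with CCGTTA both belong to Slc7a6, whose transcript did not pass. A match is a description of the letters and not evidence of binding.

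Of the 5 Slc7 genes grouped as cationic carriers, known for bringing in arginine and lysine, 3 were tested: 1 rose, 1 fell and 1 did not pass. Slc7a2 (CAT2, probe set 10571444) had signals of 3880 and 4287 in KO arrays, against 1754 and 2536 in control arrays. Both KO pools lay above both control pools, and the gap between the control pools (0.49 on the log2 scale) was wider than that between the KO pools (0.18). The gene rose 1.92-fold (log2 difference 0.94 ± 0.13, 95% CI 0.65 to 1.23, limma adjusted p = 0.00247). With a robust variance prior the limma adjusted p was 0.171.

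Slc7a1 (CAT1, probe set 10535852), the widely expressed arginine carrier, had 1139 and 1008 in KO arrays, against 1303 and 1418 in control arrays. The groups did not overlap, as for 56.3% of all tested genes and 61.3% of the tested transporters. The gene fell by 0.36 ± 0.07 on the log2 scale (95% CI -0.52 to -0.21, limma adjusted p = 0.0102), and it did not pass with median centring of the arrays (limma adjusted p = 0.0724). Slc7a4, a relative whose transport role is not settled, had 896 and 872 in KO arrays and 736 and 787 in control arrays (log2 difference 0.18 ± 0.07, limma adjusted p = 0.157). Slc7a3 and Slc7a14 lay under the filter, with log2 differences of -0.07 and -0.01.

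**Figure D2:**
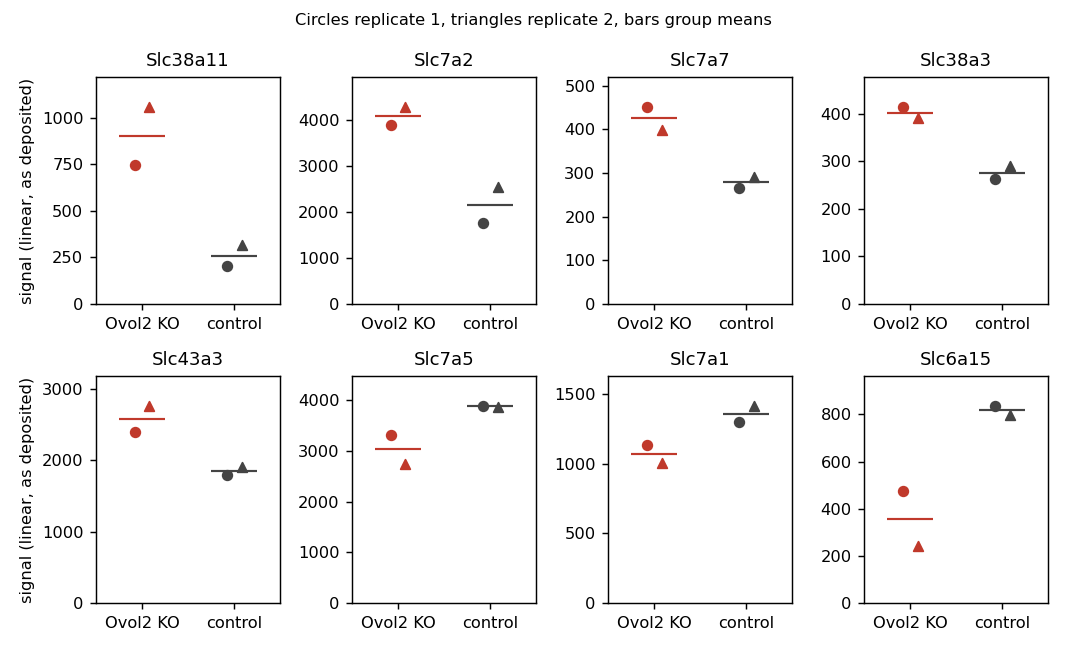
Linear signals as deposited of the 8 transporters past the threshold, with Ovol2 KO left of control in each panel. Circles are replicate 1, triangles replicate 2 and bars the group means. In all 8 panels both KO arrays lie on 1 side of both control arrays, and the KO arrays of Slc6a15 differ from each other more than the control arrays do.

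Among the heteromeric exchangers, a light chain fell and another rose while the shared heavy chain did not pass. Slc3a2 (4F2hc or CD98, probe set 10465772), the heavy chain that carries most of these light chains to the surface, had 5697 and 6015 in KO arrays, against 5587 and 5712 in control arrays. Its log2 difference was 0.04 ± 0.05 with a 95% CI from -0.08 to 0.15. A missed threshold does not show equality. Slc3a1 (rBAT), the heavy chain known from kidney and gut, lay under the filter.

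Slc7a5 (LAT1, probe set 10582275), which takes up leucine and other large neutral amino acids, had 3321 and 2745 in KO arrays, against 3889 and 3871 in control arrays. The control pools lay close together and both KO pools lay below them, replicate 2 further than replicate 1. The gene fell by 0.36 ± 0.07 (95% CI -0.53 to -0.20, limma adjusted p = 0.0138). Its value was -0.48 without KO replicate 1 and -0.24 without KO replicate 2.

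Slc7a7 (y+LAT1, probe set 10419744), which exports cationic amino acids in exchange for neutral ones, had 451 and 398 in KO arrays, against 266 and 291 in control arrays. It rose 1.45-fold (log2 difference 0.53 ± 0.13, limma adjusted p = 0.03), a call lost without control replicate 1 (0.45, limma adjusted p = 0.204) and without KO replicate 1 (0.45, limma adjusted p = 0.0639). Slc7a6 (y+LAT2) had a log2 difference of -0.10 ± 0.09. Slc7a8 (LAT2), a carrier of small and large neutral amino acids, had 336 and 277 in KO arrays and 213 and 264 in control arrays, and its log2 difference of 0.30 ± 0.18 did not pass and ranged from 0.11 to 0.49 with each array left out. Of the 9 light chains measured, 5 lay under the filter: Slc7a9, Slc7a10, Slc7a12, Slc7a13 and Slc7a15.

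Slc38a11 (probe set 10483199), a little characterised relative of the sodium-coupled neutral amino acid carriers, had 746 and 1060 in KO arrays, against 204 and 316 in control arrays. Both KO pools lay above both control pools, and the pools within each group also differed, by 0.58 between KO and 0.67 between control on the log2 scale. The gene rose 3.32-fold (log2 difference 1.73 ± 0.23, 95% CI 1.23 to 2.24, limma adjusted p = 0.00195). Control replicate 1, at 204, lay under the filter signal of 235, and with no detection calls the fold may understate the change. The gene did not pass with a robust prior (limma adjusted p = 0.117), and its value ranged from 1.39 to 2.07 with each array left out.

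System N carriers move glutamine, asparagine and histidine in either direction. Slc38a3 (SNAT3, probe set 10596718) had 415 and 390 in KO arrays, against 263 and 289 in control arrays, with no overlap. It rose 1.39-fold (log2 difference 0.47 ± 0.13, limma adjusted p = 0.0449). This call lay next to the threshold and was lost with median centring (limma adjusted p = 0.05002) and on leaving out any 1 of the 4 arrays, with values from 0.38 to 0.56. Slc38a5 (SNAT5), named after its values were seen, had 253 and 288 in KO arrays and 374 and 292 in control arrays, and its log2 difference of -0.33 ± 0.15 did not pass (limma adjusted p = 0.208) and ranged from -0.49 to -0.17 with each array left out.

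Of the 3 System A carriers, the sodium-driven importers of small neutral amino acids, 2 were tested and neither passed. Slc38a2 (SNAT2), known to rise in amino acid starvation, had 5836 and 6100 in KO arrays and 5899 and 6169 in control arrays, and its log2 difference of -0.04 ± 0.05 had a 95% CI from -0.15 to 0.07. Slc38a1 (SNAT1) had 2576 and 2254 in KO arrays, against 2502 and 2770 in control arrays (log2 difference -0.14 ± 0.07, limma adjusted p = 0.236), and it passed without KO replicate 1 (-0.21, limma adjusted p = 0.0299). A further probe set of Slc38a1 gave a log2 difference of -0.27. Slc38a4 lay under the filter.

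The remaining Slc38 genes did not pass. Slc38a9, the lysosomal carrier that senses arginine for mTORC1, had 1294 and 1140 in KO arrays and 1054 and 1124 in control arrays, with a log2 difference of 0.13 ± 0.07 and 0.17 at a further probe set. Slc38a6, Slc38a7 and Slc38a10 had log2 differences of 0.20 ± 0.09, -0.002 ± 0.09 and 0.04 ± 0.06. Slc38a8 lay under the filter.

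**Figure D3:**
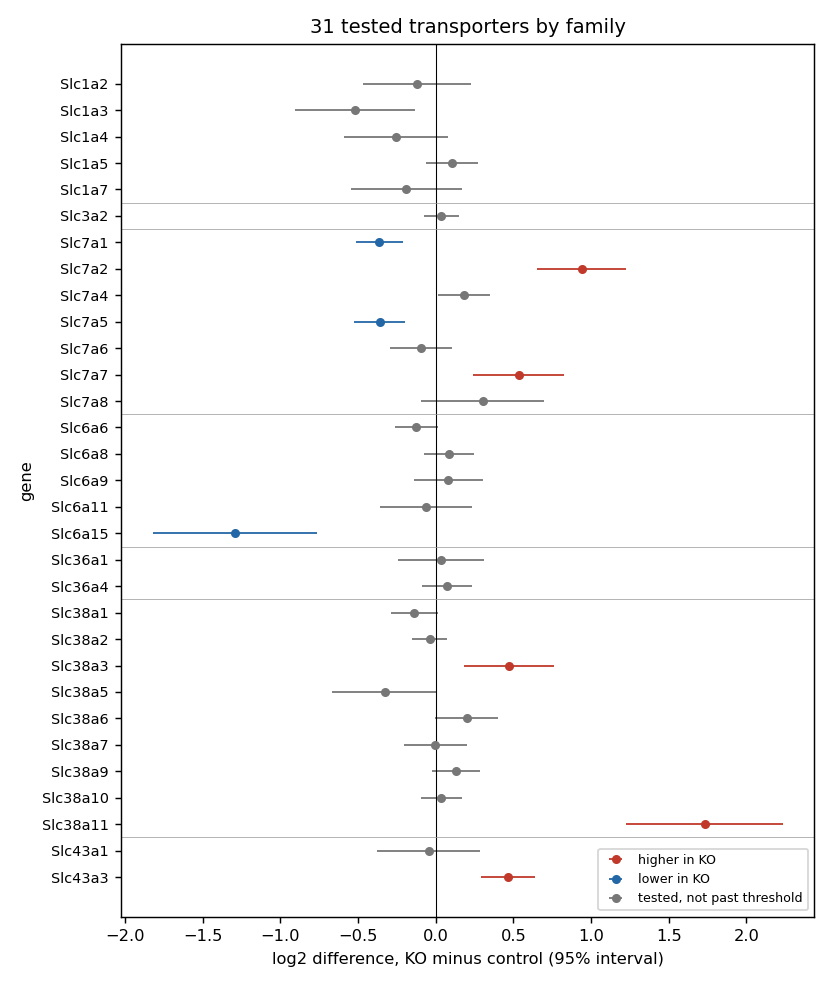
Log2 differences of KO minus control for the 31 tested transporters, with 95% intervals from limma, grouped by family from Slc1 at the top to Slc43 at the bottom. Red marks the 5 that rose, blue the 3 that fell and grey the 23 that did not pass. Of the 23, 18 have intervals that lie wholly within 0.5 of 0.

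Slc6a15 (B0AT2, probe set 10366163), which carries leucine, isoleucine, valine and proline and is best known from brain, had 475 and 241 in KO arrays, against 837 and 799 in control arrays. The control pools lay close together, both KO pools lay below them, and the KO pools differed from each other by 0.95 on the log2 scale. The log2 difference was -1.29 ± 0.24 (95% CI -1.82 to -0.76, limma adjusted p = 0.00938), so the KO signal was 2.45-fold lower. KO replicate 2, at 7.95 on the normalized log2 scale, lay under the filter level of 7.97, and here too the fold may understate the change. The size rested in part on KO replicate 2: without it the log2 difference was -0.82, and without KO replicate 1 it was -1.76. With a robust prior the gene did not pass (limma adjusted p = 0.251).

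No other Slc6 gene passed. Slc6a6, the taurine carrier, had 1309 and 1291 in KO arrays, against 1386 and 1413 in control arrays (log2 difference -0.13 ± 0.06, limma adjusted p = 0.239). Slc6a8, the creatine carrier, had 1287 and 1355 in KO arrays and 1175 and 1286 in control arrays (log2 difference 0.08 ± 0.07). Slc6a9, the glycine carrier GlyT1, and Slc6a11, a GABA carrier, had log2 differences of 0.08 ± 0.10 and -0.06 ± 0.13. The other 13 of the 18 Slc6 genes lay under the filter, among them all 3 monoamine carriers of neurons. Slc6a14, a broad carrier of neutral and cationic amino acids known from several epithelia, was among these with 62.7 and 82.5 in KO arrays and 86.1 and 68.8 in control arrays.

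None of the 5 tested Slc1 genes passed. Slc1a5 (ASCT2), the glutamine exchanger, had 892 and 816 in KO arrays, against 749 and 802 in control arrays. Both KO pools lay above both control pools, by a log2 difference of 0.10 ± 0.08 with a 95% CI from -0.07 to 0.27. Slc1a4 (ASCT1), which exchanges alanine, serine and cysteine, had 375 and 296 in KO arrays and 416 and 351 in control arrays (log2 difference -0.26 ± 0.15), a value that ranged from -0.43 to -0.08 with each array left out. Slc1a3 (EAAT1 or GLAST), a glutamate carrier named after its values were seen, had 260 and 204 in KO arrays, against 301 and 357 in control arrays. Its log2 difference of -0.52 ± 0.17 did not pass (limma adjusted p = 0.0883), although it did in the values as deposited, with median centring, with a crossed replicate block and without KO replicate 1 (-0.71). It was -0.33 without KO replicate 2 (limma adjusted p = 0.335) and -0.39 without control replicate 2 (limma adjusted p = 0.34). Slc1a2 and Slc1a7, also glutamate carriers, had -0.12 ± 0.16 and -0.19 ± 0.16.

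Slc43a3 (probe set 10473384), which is known to carry purine nucleobases and not amino acids although it lies in the family, had 2392 and 2766 in KO arrays, against 1798 and 1900 in control arrays. It rose 1.38-fold (log2 difference 0.46 ± 0.08, 95% CI 0.29 to 0.64, limma adjusted p = 0.00631), and it passed with each of the 4 arrays left out. Slc43a1 (LAT3), a facilitative carrier of branched-chain amino acids and phenylalanine, had 247 and 252 in KO arrays and 243 and 257 in control arrays (log2 difference -0.05 ± 0.15). Slc43a2 (LAT4) lay under the filter, with 276 and 226 in KO arrays and 197 and 205 in control arrays. The Slc36 genes Slc36a1, whose carrier is found on lysosomes, and Slc36a4 had log2 differences of 0.03 ± 0.12 and 0.07 ± 0.07, and neither passed.

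Across the tested transporters, both KO arrays lay above both control arrays for 10 of 31 genes (26.4% of all tested genes did so) and below them for 9 (29.9% of all tested genes), and the groups overlapped for 12. The 28 genes under the filter had signals between 32.9 and 276 and log2 differences between -0.21 and 0.25. At the filter level of 7.97, Slc1a2 lay just inside with a mean of 7.97 and Slc6a12 just outside with 7.94.

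**Figure D4:**
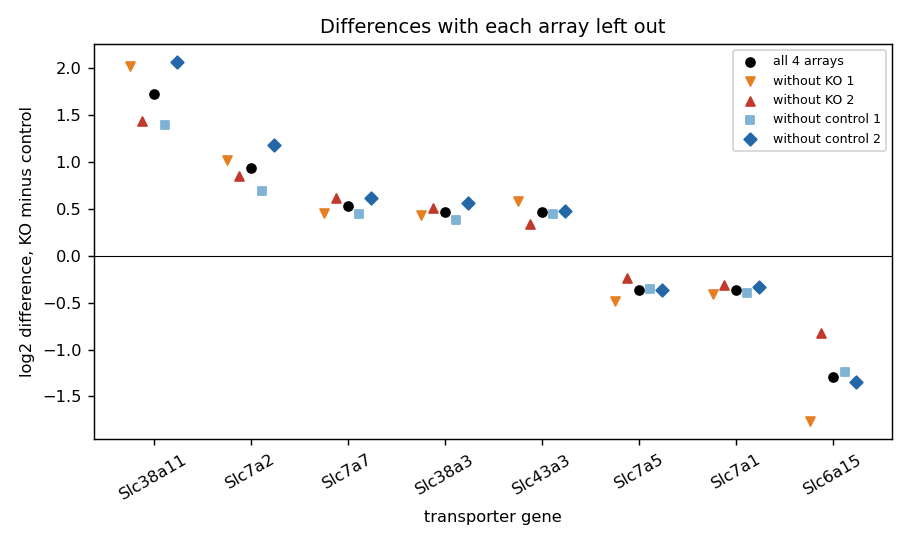
Log2 differences of KO minus control for the 8 transporters past the threshold, with all 4 arrays (black) and with each array left out. Signs stay the same for all 8. The widest spreads are those of Slc6a15, from -1.76 to -0.82, and Slc38a11, from 1.39 to 2.07.

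Genes that use or sense the carried amino acids were read from the same fit, in which 6.29% of all tested genes rose and 4.46% fell. The lists were chosen with earlier results known and hold few genes, so their shares are a description. Of 9 tested enzymes of glutamine and glutamate, 2 (22.2%) rose, 0 fell and 7 did not pass. Glul, glutamine synthetase, had 9657 and 8561 in KO arrays, against 4549 and 5948 in control arrays, and rose 1.74-fold (log2 difference 0.80 ± 0.11, limma adjusted p = 0.00243, but 0.171 with a robust prior). Abat, which breaks down GABA, rose by 0.43 ± 0.10, a call lost with median centring and on leaving out KO replicate 2 or either control array.

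Of 11 tested enzymes of serine, glycine and proline, 0 rose, 4 (36.4%) fell and 7 did not pass. Psat1, of serine synthesis, had 1363 and 1202 in KO arrays, against 1693 and 1611 in control arrays, and fell by 0.38 ± 0.07 (limma adjusted p = 0.00901). Mthfd1l, Mthfd1 and Shmt2, which pass on 1-carbon units taken from serine, fell by 0.47 ± 0.11, 0.30 ± 0.07 and 0.30 ± 0.08. With median centring only Psat1 of the 4 passed, and Shmt2 was also lost with no filter, with a crossed replicate block, and without control replicate 2 or KO replicate 2. Without control replicate 1, limma called 0 of these 11 genes, 5 of which had an unadjusted p under 0.05. Without KO replicate 1 it called 7 of them lower.

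Of 11 tested enzymes of branched-chain amino acids and arginine, 2 (18.2%) rose and 2 (18.2%) fell. Arg2, the mitochondrial arginase that splits arginine, had 4574 and 4557 in KO arrays, against 2795 and 3241 in control arrays, and rose 1.52-fold (log2 difference 0.60 ± 0.06, limma adjusted p = 0.000829). Gatm and Gamt act one after the other in creatine synthesis from arginine. Gatm rose by 0.58 ± 0.10, with 1197 and 952 in KO arrays and 650 and 733 in control arrays. Gamt fell by 0.51 ± 0.12, with 769 and 575 in KO arrays and 972 and 895 in control arrays. Bcat1, the cytosolic transaminase of branched-chain amino acids, had 218 and 158 in KO arrays, against 379 and 314 in control arrays, and fell by 0.89 ± 0.19. Both KO arrays of Bcat1 lay under the filter signal of 235, so it passed the filter only through its control arrays. Neither Gamt nor Bcat1 passed without control replicate 1 (limma adjusted p = 0.138 and 0.131).

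Of 14 tested genes of the amino acid response, which ATF4 drives when amino acids run short, 2 (14.3%) rose and 12 did not pass. Nupr1, a stress-induced chromatin protein, rose by 0.49 ± 0.06. Cebpb, a transcription factor that can pair with ATF4, rose by 0.28 ± 0.07, a call lost with median centring and on leaving out KO replicate 2 or either control array. Without KO replicate 1 limma called 4 genes of the list higher and 1 lower. Of 23 tested genes of amino acid sensing by mTORC1, Sesn1, a sestrin, rose by 0.35 ± 0.07 and 22 did not pass, a share of 4.35% under the background of 6.29%. With no filter 2 of 25 rose. Under the filter lay Rragb, with 206 and 205 in KO arrays and 106 and 101 in control arrays (log2 difference 0.88), and Rragd (0.24). Sesn1 did not pass with median centring or without control replicate 1, and without KO replicate 1 there were 2 that rose. Of 17 aminoacyl-tRNA synthetases limma called 0, and 3 had an unadjusted p under 0.05, while without KO replicate 1 it called 3 lower. Of 11 other amino acid and peptide carriers and their partners, Slc15a2, the peptide carrier PEPT2, rose by 0.92 ± 0.23, with 665 and 980 in KO arrays and 320 and 529 in control arrays, and it did not pass with a robust prior (limma adjusted p = 0.371), with the filter at the 60th percentile (0.0517), with a crossed replicate block (0.0558) or without control replicate 1 (0.57, limma adjusted p = 0.142). Its value was 0.60 without KO replicate 2 and 1.27 without control replicate 2. The list had 2 that rose without control replicate 2 or without KO replicate 2.

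**Figure D5:**
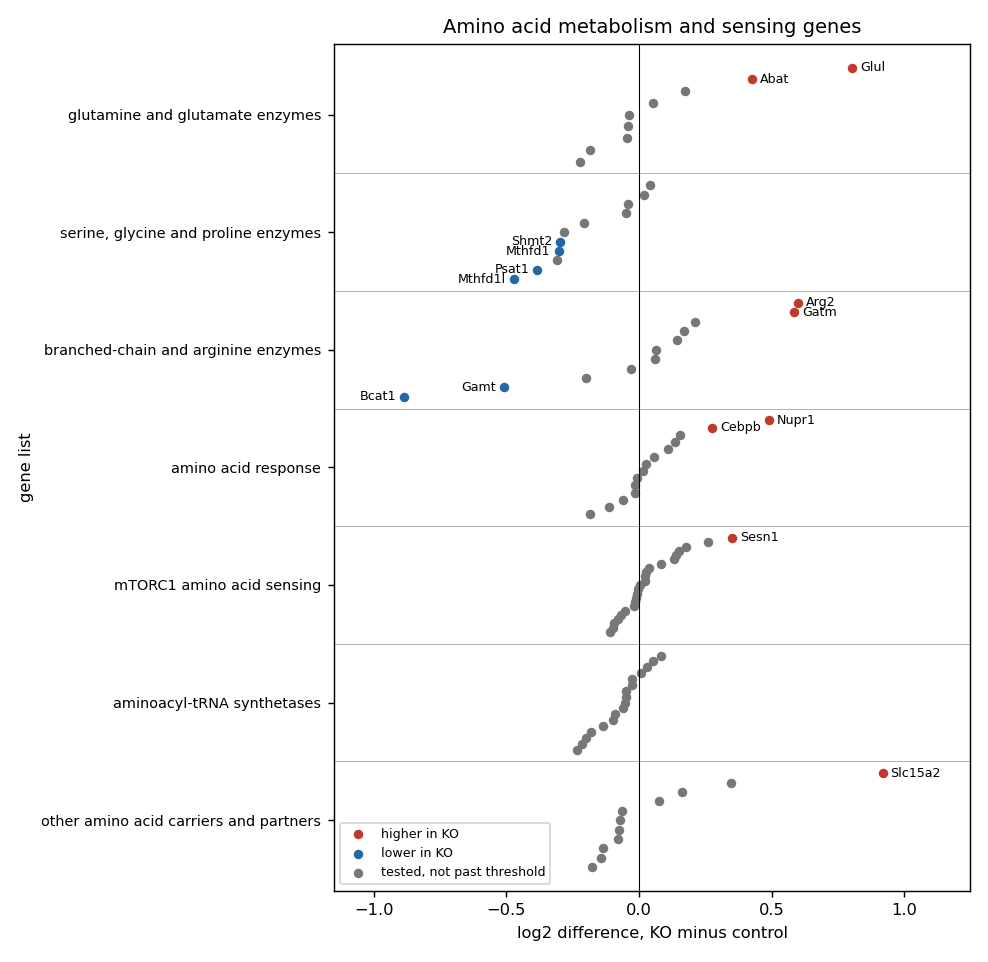
Log2 differences of KO minus control for tested genes in 7 lists of amino acid metabolism, response, sensing and transport, with each point 1 gene. Red and blue mark genes past the threshold. All 4 called genes of the serine, glycine and proline list lie left of 0, and 0 of the 17 aminoacyl-tRNA synthetases are coloured.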

How the data were processed

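Terminal end bud RNA was measured on 4 arrays, 2 Ovol2 KO and 2 control, grouped by the sample titles. The authors deposited 1 linear signal intensity per probe set and array, for 35556 probe sets. PLIER 2.0 and Affymetrix Expression Console 1.1.1 are listed in the submitters' processing notes. Their settings, any background correction or normalization between arrays, and the build were not given in the sources used here. Array medians lay between 252 and 272. The number of arrays limits precision. Of the probe sets, 21789 carried 1 gene symbol, 1621 several and 12146 none in the platform annotation.

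Values were log2(signal + 16), quantile normalized over all probe sets, filtered at the 40th percentile, and fitted in limma 3.58.1 (R 4.3.3) with lmFit and eBayes with a trend, two-sided, with 2 residual and 7.57 prior degrees of freedom. The script was tested on simulated data. Members and lists were chosen with earlier results of these data known. Named genes were the transporters past the threshold, the 2 brightest of each family, a fixed set of carriers, and up to 4 called genes per pathway list. The fixed set included Slc38a11 and Slc6a15, whose differences were known beforehand. Other tested members are given by their differences, without having been chosen for them except Slc1a3 and Slc38a5. Of list genes, those with no single-gene probe set were not used. Alternatives covered the offset (1 or 64), normalization, filter, variance prior, probe set rule, each array left out and a replicate block.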

Additional observations from a re-analysis of the deposited data

How the results depend on the processing

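With 2 arrays per group, pool size and the null allele went with the KO label, as did Cre per the sample characteristics. These cannot be told apart. The count of all genes past the threshold, 1285, became 754 with median centring, 189 without the variance trend and 2244 with a replicate block, and ranged from 475 (without control replicate 1) to 2351 (without KO replicate 1) with each array left out. Transporters that rose numbered 2 with the filter at the 60th percentile, where 17 could be tested, 0 without the trend, 3 with a robust prior, and from 3 to 4 with each array left out. Transporters that fell numbered 0 without the trend, and from 3 to 5 with each array left out, the 5 without KO replicate 1, where Slc1a3 and Slc38a1 were added. The median log2 difference of tested transporters was 0.0512 in the values as deposited, 0.00308 with median centring, -0.0455 with no filter, where all 59 entered, and from -0.00114 to 0.0323 with each array left out.

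Signs turned with an array left out for Slc36a1 (from -0.0861 to 0.156), Slc36a4 (from -0.00114 to 0.146), Slc38a2 (from -0.0793 to 0.00156), Slc3a2 (from -0.00839 to 0.0789), Slc43a1 (from -0.117 to 0.0259), Slc6a11 (from -0.212 to 0.0894) and Slc38a7 (from -0.0923 to 0.0881, and 0.0394 in the values as deposited), and for no other named tested gene under the alternatives run. Without the trend all 8 transporter calls were lost, and the cause was not tested. Slc7a2, Slc38a11 and Slc6a15 were also lost with a robust prior. Fits with an infinite prior (as deposited, median centring, the block and those without a KO array) take the variance as known, and a lone array is assumed to vary like the others.

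Same-numbered arrays did not deviate together (r = -0.195 over 11963 genes). This correlation cannot show whether same-numbered pools shared a litter or a batch, which the labels do not state. The replicate block called 7 of the 8 transporters, without Slc38a3. A crossed block, chosen after seeing the data, called 1186 genes and 9 transporters, the 8 and Slc1a3.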
